A study of Mus musculus with 17 samples.

Results

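The 9 genes described here act in meiotic recombination, from the cutting of DNA to the making of crossovers. They were taken by name, as the rows listed as Spo11, Prdm9, Mei1, Dmc1, Psmc3ip, Spata22, Msh4, Msh5 and Hfm1 in each of the 2 gene tables of the study, and were 9 of the 23980 genes listed there. All 9 were found in each table, and all 9 passed the filter on low counts at each stage.

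Poly(A) RNA was sequenced from 17 mouse libraries of strain C57BL6/J. Leptotene/zygotene (L/Z) spermatocytes sorted by FACS from males 3 to 4 weeks of age gave 6 libraries, 2 each from wild type (WT), Pld6 knockout (KO) and Dnmt3l KO animals. Whole testes at day 0 after birth (P0) gave 11 libraries, 2 from WT, 4 from Pld6 KO, 2 from Dnmt3l KO and 3 from mice lacking both genes (DKO). The product of Pld6 sits on mitochondria and acts in the making of PIWI-interacting RNAs. DNMT3L helps DNA methyltransferases to act in fetal male germ cells. These are deletions in every cell of the animal, and mutant germ cells die in meiotic prophase. The P0 samples hold somatic cells as well as germ cells, so that fewer germ cells and less RNA per germ cell cannot be told apart there, and the same holds for the mix of sorted stages at L/Z.

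In meiotic prophase SPO11, a topoisomerase-like enzyme, cuts both DNA strands at sites that PRDM9 marks by methylating histone H3. Single-stranded ends are then coated and paired with the homologous chromosome by recombinases, and part of the resulting joints are stabilised and matured into crossovers. In the mouse testis this takes place in leptotene, zygotene and pachytene spermatocytes. At birth the male germ cells are arrested prospermatogonia, which have not entered meiosis.

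RefSeq (GRCm38.p6) places Spo11 on chromosome 2, Msh4 on chromosome 3, Hfm1 on chromosome 5, Psmc3ip and Spata22 on chromosome 11, Mei1 and Dmc1 on chromosome 15, and Prdm9 and Msh5 on chromosome 17. A promoter window, from 250 bases before to 50 bases after an annotated start, was at hand for 8 of the 9 genes, all but Spo11. The windows of Mei1, Spata22, Msh4, Msh5 and Hfm1 lie wholly inside the gene as RefSeq places it. For Mei1 the window begins at base 82082226 and the gene at base 82070074. The windows are thus not always at the outermost start of a gene. The windows of the 5 genes that were called in the comparison of Dnmt3l KO with WT are printed here, 5′ to 3′ on the gene's strand. They are chr17:15564305-15564604 (minus strand) for Prdm9, chr11:73329491-73329790 (plus strand) for Spata22, chr15:79605060-79605359 (minus strand) for Dmc1, chr17:35046573-35046872 (minus strand) for Msh5 and chr5:106925841-106926140 (minus strand) for Hfm1. Capitals mark the letters CNCCTCAG, the core recognised by the meiotic activator STRA8, and GGCGGGAA, a site of E2F factors, on either strand. In the Prdm9 window the E2F letters and 1 of the 2 STRA8 matches overlap.
Prdm9: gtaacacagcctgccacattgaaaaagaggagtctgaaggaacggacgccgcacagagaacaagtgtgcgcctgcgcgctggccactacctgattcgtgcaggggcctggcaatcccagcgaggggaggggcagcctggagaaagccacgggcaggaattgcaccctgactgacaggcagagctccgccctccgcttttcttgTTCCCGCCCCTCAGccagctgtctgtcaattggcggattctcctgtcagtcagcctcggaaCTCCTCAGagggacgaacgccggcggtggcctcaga
Spata22: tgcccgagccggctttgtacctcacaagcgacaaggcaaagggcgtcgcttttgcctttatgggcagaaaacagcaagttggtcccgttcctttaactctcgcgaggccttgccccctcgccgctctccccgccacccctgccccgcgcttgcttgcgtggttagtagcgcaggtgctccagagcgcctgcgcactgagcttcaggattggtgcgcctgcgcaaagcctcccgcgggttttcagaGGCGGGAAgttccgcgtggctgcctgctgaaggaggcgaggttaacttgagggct
Dmc1: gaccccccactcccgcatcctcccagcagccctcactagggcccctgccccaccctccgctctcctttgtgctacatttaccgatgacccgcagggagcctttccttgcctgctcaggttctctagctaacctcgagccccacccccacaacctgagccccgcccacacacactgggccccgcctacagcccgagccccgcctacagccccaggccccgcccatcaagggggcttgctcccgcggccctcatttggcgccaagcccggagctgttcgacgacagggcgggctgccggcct
Msh5: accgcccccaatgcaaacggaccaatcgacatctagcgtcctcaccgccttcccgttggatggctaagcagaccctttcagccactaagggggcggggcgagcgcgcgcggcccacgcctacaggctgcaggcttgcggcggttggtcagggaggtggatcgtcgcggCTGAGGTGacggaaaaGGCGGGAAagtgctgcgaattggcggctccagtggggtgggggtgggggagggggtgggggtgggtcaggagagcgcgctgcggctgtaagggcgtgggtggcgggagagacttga
Hfm1: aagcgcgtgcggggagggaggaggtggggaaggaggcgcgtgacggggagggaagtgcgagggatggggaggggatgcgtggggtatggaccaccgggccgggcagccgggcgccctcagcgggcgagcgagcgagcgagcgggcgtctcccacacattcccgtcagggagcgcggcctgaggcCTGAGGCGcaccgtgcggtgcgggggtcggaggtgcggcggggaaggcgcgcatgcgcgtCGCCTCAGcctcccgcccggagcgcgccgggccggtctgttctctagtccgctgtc

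The STRA8 letters occurred in the windows of 3 of 8 genes (Prdm9, Msh5 and Hfm1), against 7.94% of 32851 mouse promoters. The E2F letters also occurred in 3 of 8 (Prdm9, Spata22 and Msh5), against 2.19% of all promoters. The E-box CACGTG occurred in 0 of the 8, against 7.15% of all promoters. Prdm9 has a further annotated start, at chr17:15563282-15563581, whose window held none of these letters. The ratio of observed to expected CpG dinucleotides was above the median of all promoters (0.384) in the windows of the other 7 genes and of the upstream Prdm9 start. It was highest in Hfm1 (1.03), followed by Msh5 (0.855), Spata22 (0.849), Psmc3ip (0.815), Prdm9 (0.631), Dmc1 (0.571), Mei1 (0.491) and Msh4 (0.436). These are descriptions of the letters in a window and were not tested.

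Libraries held 5188461 to 14560678 fragments at L/Z and 9460560 to 23420782 at P0. Pld6 had 0 fragments in both L/Z Pld6 KO libraries, where a count of 0 allows up to 3 fragments in a library, and Dnmt3l had 0 in both L/Z Dnmt3l KO libraries. In WT at L/Z, Pld6 stood at 29.1 and 29.9 CPM, a gene's fragments relative to the effective size of the library. Dnmt3l stood at 1.61 and 0.935 CPM in those WT libraries and was thus low with the gene intact. At P0, Pld6 had at most 2 fragments in a Pld6 KO or DKO library and Dnmt3l at most 3 in a Dnmt3l KO or DKO library. At L/Z the 45S ribosomal RNA gene Rn45s was abundant in replicate 1 of WT (8.27% of the library) and replicate 1 of Pld6 KO (8.06%), and made up 0.134% to 0.3005% of the other 4 libraries. All 10 markers of leptotene and zygotene cells were detected in every L/Z group. Their summed level was 2986 and 5292 CPM in WT, 3734 and 5493 CPM in Pld6 KO, and 9794 and 8949 CPM in Dnmt3l KO.

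In WT L/Z spermatocytes all 9 genes were expressed, at levels that are compared between genes only in FPKM, which corrects for transcript length. Dmc1, the recombinase of meiosis, had the highest mean, 87.0 ± 39.8 FPKM (SD, n = 2). Msh4, a subunit of a complex that holds recombination joints, had the lowest, 9.67 ± 6.21 FPKM. In between came Psmc3ip (44.5), Spata22 (39.3), Hfm1 (36.5), Prdm9 (30.1), Msh5 (28.6), Mei1 (26.3) and Spo11 (21.8). The WT range of Dmc1 (58.8 to 115 FPKM) lay above that of Psmc3ip (33.1 to 55.9 FPKM). All other neighbours in this order had overlapping ranges.

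WT replicate 2 exceeded WT replicate 1 for all 9 genes, by 1.16-fold for Mei1 and by 1.69-fold (Psmc3ip) to 2.67-fold (Msh4) for the other 8. The summed L/Z markers of the same libraries, given above, had the same order. In Dnmt3l KO, replicate 2 stood at 0.508 (Msh4) to 1.03 (Hfm1) times replicate 1. The Dnmt3l KO replicates lay closer together than those of WT for 8 of the 9 genes, but not for Mei1 (0.852 times).

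**Figure D1:**
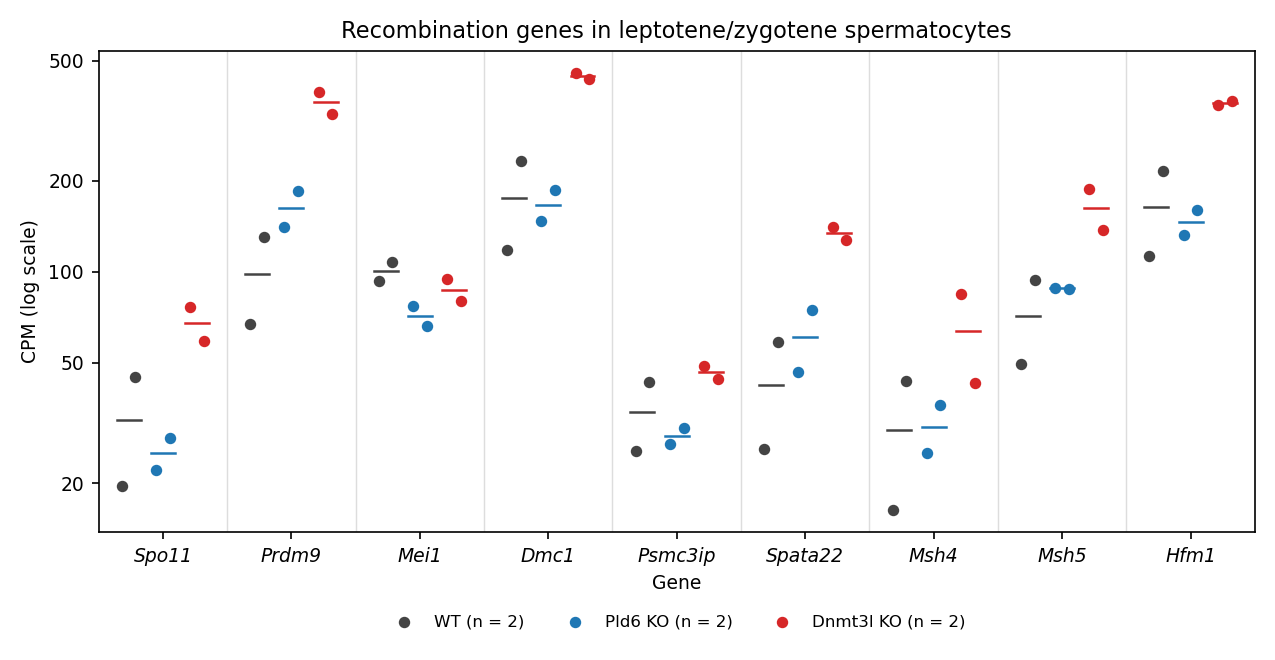
Level of each gene in each L/Z library, in CPM on a log scale, with 1 point per library and a bar at the mean of the 2 libraries of a genotype. Both Dnmt3l KO libraries lie above both WT libraries for 7 of the 9 genes, against 28.1% of all genes tested. For Mei1 and Msh4 the groups overlap.

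To ask whether recombination genes differed in spermatocytes lacking Dnmt3l, the L/Z Dnmt3l KO and WT libraries were compared. Of the 9 genes, 5 were higher in Dnmt3l KO and 0 were lower, in edgeR's quasi-likelihood test, where a call needed an FDR (false discovery rate, the adjusted p) under 0.05 together with a fold change over 2. Among all 14662 genes tested, 5.47% were called in either direction and 3.89% were called higher. The genes called were Prdm9, Spata22, Dmc1, Msh5 and Hfm1, with at least 1 from each of the 3 steps of the pathway. The median log2 difference of the 9 genes was 1.15, against -0.04 over all genes.

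Among the genes of break formation, Prdm9 differed most. Prdm9, the histone methyltransferase that places the breaks, stood at 67.2 and 130 CPM in WT and at 394 and 334 CPM in Dnmt3l KO. Every Dnmt3l KO library was thus above every WT library. The log2 difference was 1.88 (SE 0.30, FDR 0.0107), a 3.69-fold higher level. It was 1.48 (FDR 0.0429) without WT replicate 1, 2.44 without WT replicate 2 and 1.75 (FDR 0.13) without Dnmt3l KO replicate 1. Spo11, which makes the cut, stood at 19.6 and 44.9 CPM in WT and at 76.8 and 59 CPM in Dnmt3l KO. These groups did not overlap, but the difference of 1.07 on the log2 scale (95% interval 0.30 to 1.84) was not called, at an FDR of 0.0834. Mei1, which is required for break formation, was at 93.1 and 108 CPM in WT and at 94.4 and 80.4 CPM in Dnmt3l KO. Its groups overlapped, and its log2 difference was -0.20 (95% interval -0.66 to 0.26, FDR 0.569).

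In the strand exchange group, Spata22 and Dmc1 were called. Spata22, whose product binds single-stranded DNA together with MEIOB, stood at 26 and 58.6 CPM in WT and at 141 and 127 CPM in Dnmt3l KO. The log2 difference was 1.66 (SE 0.35, FDR 0.0234), or 3.17-fold. Dmc1 stood at 118 and 232 CPM in WT and at 456 and 434 CPM in Dnmt3l KO. Its log2 difference was 1.35 (SE 0.30, FDR 0.0272), or 2.54-fold. For both genes the 2 groups were apart. Psmc3ip, also known as HOP2, which helps DMC1 to pair strands, stood at 25.6 and 43.3 CPM in WT and at 48.8 and 44.2 CPM in Dnmt3l KO. The groups did not overlap by a narrow margin, and the log2 difference of 0.43 (95% interval -0.17 to 1.04, FDR 0.337) was not called.

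Of the crossover genes, Msh5 and Hfm1 were called and Msh4 was not. MSH4 and MSH5 form a heterodimer on recombination joints, and HFM1 is a helicase of the crossover pathway. Msh5 stood at 49.5 and 93.8 CPM in WT and at 188 and 138 CPM in Dnmt3l KO, a log2 difference of 1.19 (SE 0.29, FDR 0.0354). Hfm1 stood at 113 and 215 CPM in WT and at 357 and 367 CPM in Dnmt3l KO, a log2 difference of 1.15 (SE 0.29, FDR 0.0379). Neither gene overlapped between the groups. Msh4 stood at 16.3 and 43.6 CPM in WT and at 84.6 and 42.9 CPM in Dnmt3l KO, so that Dnmt3l KO replicate 2 fell below WT replicate 2. Its log2 difference of 1.08 (95% interval 0.12 to 2.03) had an FDR of 0.144.

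In all, 7 of the 9 genes had both Dnmt3l KO libraries above both WT libraries, which held for 28.1% of all genes tested. The number of genes called depended on single libraries. Only Prdm9 was called without WT replicate 1 or without Dnmt3l KO replicate 2, and 0 genes were called without Dnmt3l KO replicate 1, when 1 gene was called in the whole table. Without WT replicate 2, 7 genes were called, the additions being Spo11 and Msh4, and without either Pld6 KO library, 6 were called, the addition being Spo11. Over all genes, 802 were called, against 149 without WT replicate 1, 1139 without WT replicate 2, 1026 and 989 without a Pld6 KO library, and 575 without Dnmt3l KO replicate 2. Without WT replicate 1 the log2 differences of the other 4 called genes fell to 0.94 (Dmc1), 1.19 (Spata22), 0.80 (Msh5) and 0.75 (Hfm1). Without WT replicate 2 they were 1.91, 2.37, 1.72 and 1.69 in that order. WT replicate 1 was also the WT library rich in Rn45s, and neither Dnmt3l KO library was rich in it. With a term for Rn45s-rich libraries in the fit, 4 genes were called, with Hfm1 at 0.91 (FDR 0.0374) below the fold threshold. With an offset for GC content and length, Hfm1 stood at 0.63 (FDR 0.193) and Dmc1 at 1.07 (FDR 0.054), and neither was called. With limma at a pseudocount of 1, Msh5 was not called (1.21, FDR 0.0526).

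**Figure D2:**
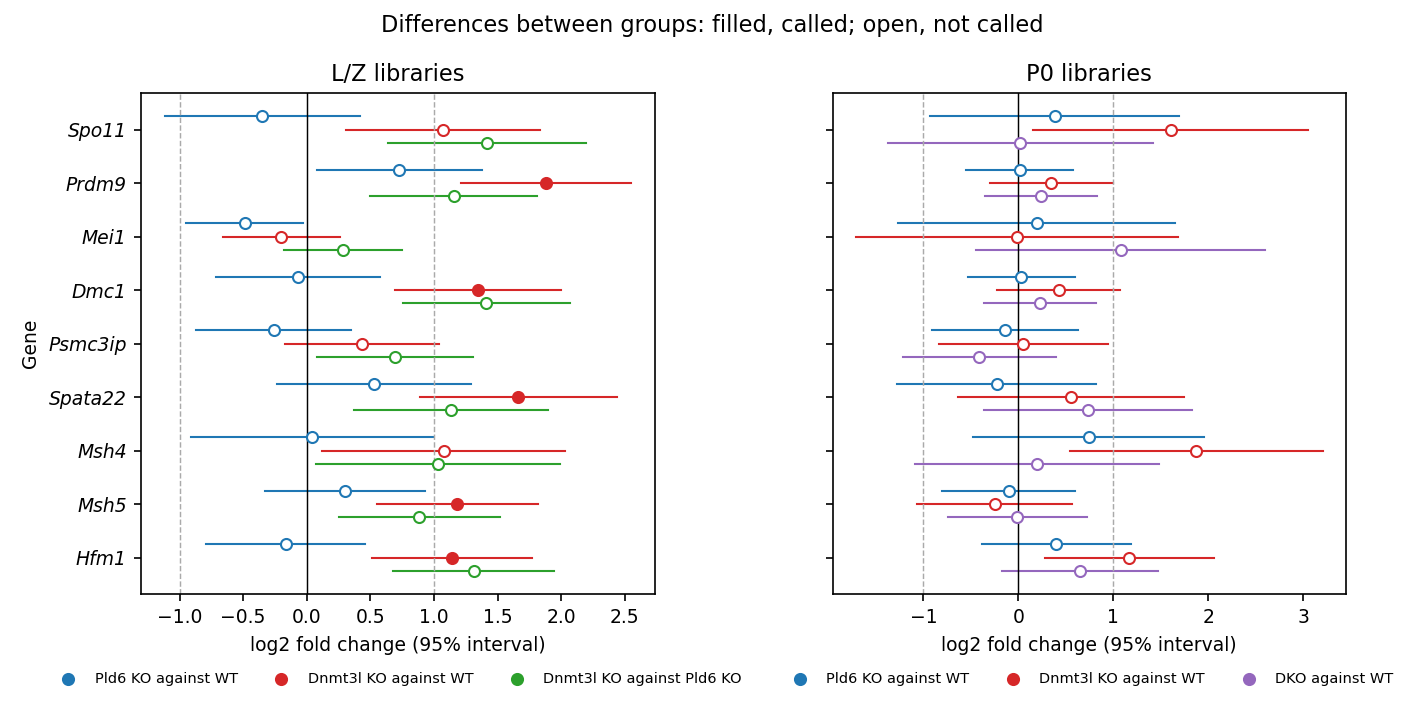
Log2 fold change of each gene (point) with its 95% interval (line) in the 3 comparisons at L/Z (left) and the 3 at P0 (right), from edgeR. Filled points were called, dashed lines mark a fold change of 2 in either direction, and the 5 called points all belong to L/Z Dnmt3l KO against WT.

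Markers of cell stage also differed, and the median of the L/Z markers was higher in Dnmt3l KO, as was that of the 9 genes. Of all genes tested, 3.89% were called higher in Dnmt3l KO than in WT at L/Z. Of 10 L/Z markers, 5 were called higher in Dnmt3l KO than in WT and 0 lower, with a median log2 difference of 1.19. They included Sycp1 (1.30, FDR 0.0339) and Sycp2 (1.34, FDR 0.0342), components of the synaptonemal complex, Hormad1 (1.66, FDR 0.0317), a protein of unpaired chromosome axes, and Smc1b (1.09, FDR 0.0447), a meiotic cohesin. The L/Z markers not called were Sycp3 (1.30), Tex101 (0.72), Syce1 (0.55), Stra8 (0.46) and Rec8. Rec8, also a meiotic cohesin, lay lower (-0.35, FDR 0.47). The lists of Sertoli cell, spermatogonial and later-stage markers had medians below 0 in the same comparison. The summed level of 6 Sertoli cell markers was 184 and 128 CPM in WT and 104 and 35.9 CPM in Dnmt3l KO, with a median log2 difference of -1.24 and 0 called. That of 8 spermatogonial markers was 1579 to 1709 CPM in WT and 709 to 1215 CPM in Dnmt3l KO. Their median log2 difference was -0.86 with 0 called, and 1 of them, Gfra1, lay higher (0.17, FDR 0.876). Of 10 markers of pachytene and later cells only 4 could be tested, and 2 were called lower (Piwil1 and Spag6). Their summed level was 51.9 and 74.5 CPM in WT and 19 and 14.7 CPM in Dnmt3l KO, and Prm2 was at 0 in all 3 L/Z groups. The part of these shifts in the result for the 9 genes was not tested.

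When libraries were instead scaled to the geometric mean of the 10 L/Z markers, an alternative chosen after seeing the data, the median log2 difference of all genes moved to -1.11. On that scale Prdm9 was still higher in Dnmt3l KO, by 0.93 (FDR 0.0337), which is below the fold threshold. Spata22 stood at 0.74 (FDR 0.104), Dmc1 at 0.40, Msh5 at 0.23, Hfm1 and Msh4 at 0.19 and Spo11 at 0.15, none of them called. Psmc3ip turned to -0.54, and Mei1, at -1.25 (FDR 0.00726), was called lower. So were 5934 genes of the whole table, while 101 were called higher. Relative to the median of all genes on that scale, the differences were 2.04 for Prdm9, 1.85 for Spata22, 1.51 for Dmc1 and -0.14 for Mei1. In the main fit, relative to its own median, they were 1.92, 1.70, 1.38 and -0.16 in that order. Subtracting the median takes most of the shift from scaling back out. These relative values therefore do not show what remains after scaling to the markers.

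**Figure D3:**
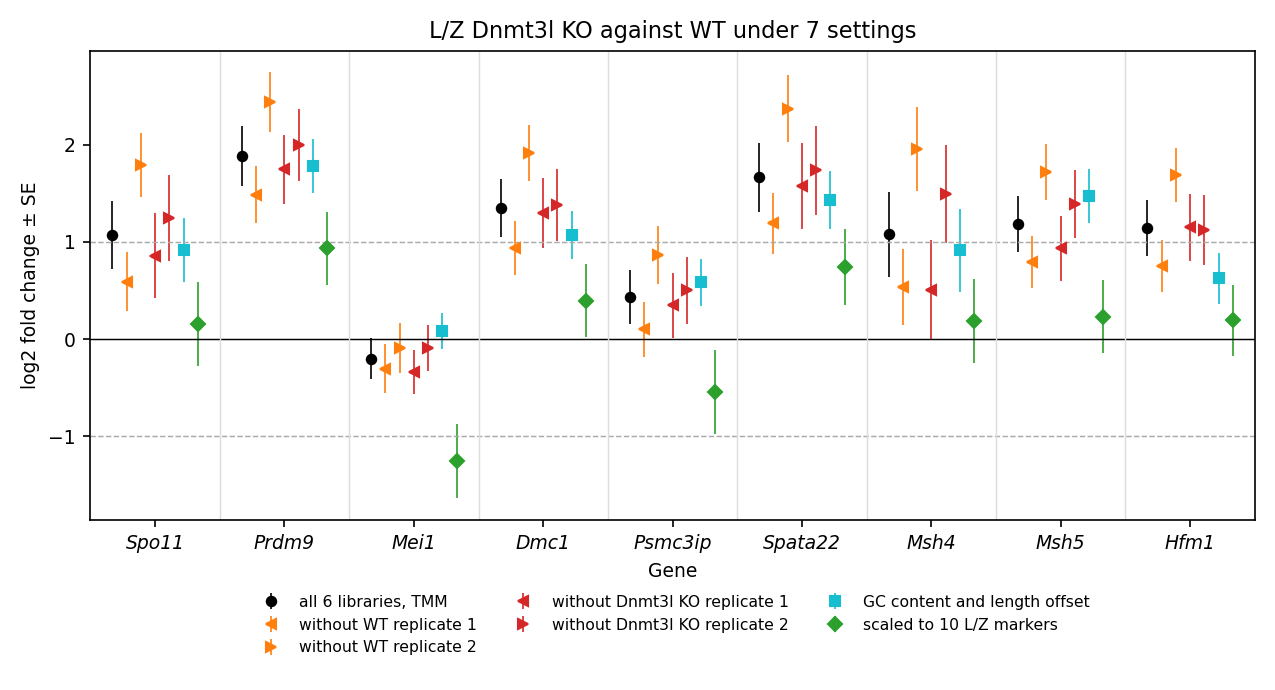
Log2 fold change (point) with its SE (bar) of each gene in L/Z Dnmt3l KO against WT under 7 settings, with dashed lines at a fold change of 2. Leaving out WT replicate 1 lowers all 9 values, leaving out WT replicate 2 raises them, and scaling to the 10 L/Z markers moves every gene down, with Prdm9 highest at 0.93.

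The other recombination genes, fixed as a list of 44 of which 41 were matched, had a smaller median difference. In Dnmt3l KO against WT at L/Z, 1 of 41 was called higher and 0 lower. Of all genes tested, 3.89% were called higher and 5.47% in either direction. The median log2 difference of the 41 was 0.27, against -0.04 for all genes and 1.15 for the 9 genes. The gene called was Meiob, which encodes the partner of SPATA22 on single-stranded DNA, with a log2 difference of 2.17 (SE 0.45, FDR 0.0233). It stood at 36.2 and 98.5 CPM in WT, 94.1 and 189 CPM in Pld6 KO, and 371 and 238 CPM in Dnmt3l KO. Mcmdc2 differed by 1.70 (FDR 0.0533) and was not called. By step, the medians were 0.59 for 7 further genes of break formation, 0.41 for 5 of end resection, 0.06 for 16 of strand exchange and 0.31 for 13 of crossover formation. Mnd1, which encodes the partner of PSMC3IP, was at -0.41 (FDR 0.582). Of these partners, Spata22 and Meiob were both called, and Psmc3ip and Mnd1 were not. The heterodimer genes Msh5 and Msh4 were split, with Msh5 called (FDR 0.0354) and Msh4 not (FDR 0.144). In Pld6 KO against WT at L/Z, 0 of the 41 were called, against 0.225% of all genes, and their median was 0.06.

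**Figure D4:**
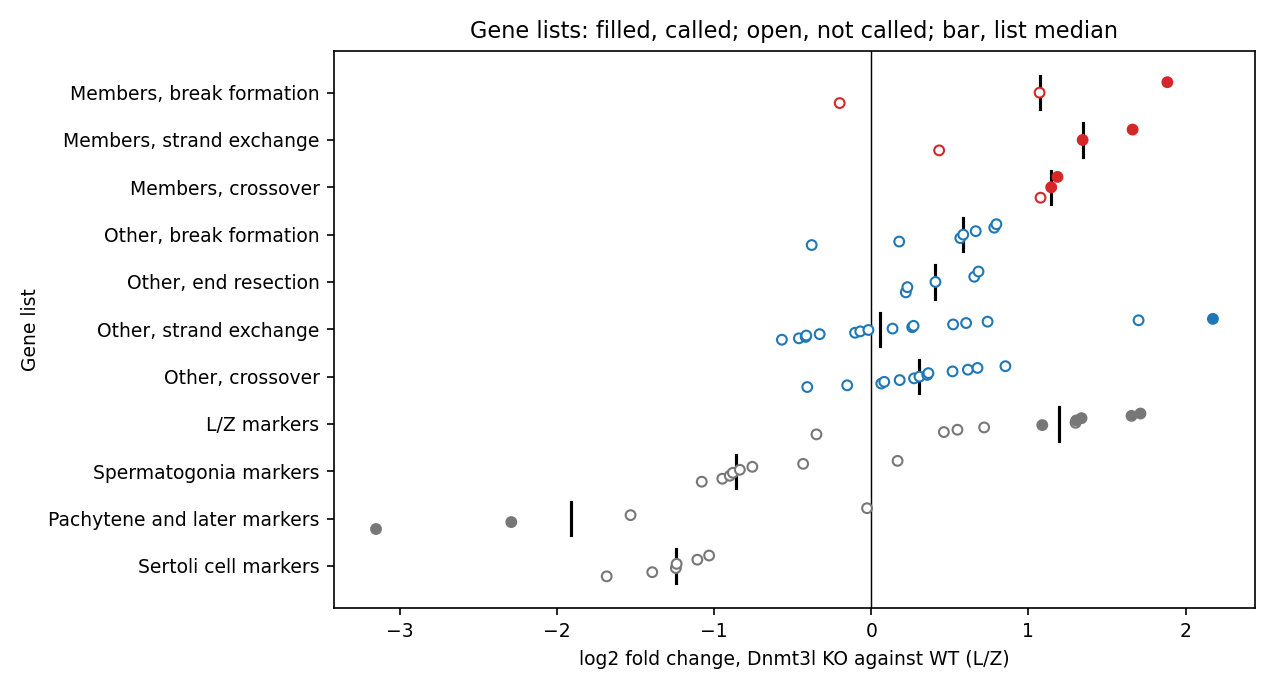
Log2 fold change of single genes (points) in L/Z Dnmt3l KO against WT, by list, with the 9 genes in red, the other recombination genes in blue and cell type markers in grey. Filled points were called, and the black bar is the list's median, which lies above 1 for each group of the 9 genes and for the L/Z markers.

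Over the 6 L/Z libraries, 8 of the 9 genes followed the mean of the other members closely, with Pearson's r from 0.868 (Prdm9) to 0.992 (Spo11). Mei1 did not, with an r of 0.133. When 11031 genes averaging 50 or more fragments were ranked, those most like the mean profile of the 9 genes were Dlg3 (r = 0.9996), Tmem199 (0.9957), Ift57 (0.9951), Gm17066 (0.9949) and Phf7 (0.9946). Phf7, for example, stood at 67 and 119 CPM in WT, 74 and 85 CPM in Pld6 KO, and 171 and 140 CPM in Dnmt3l KO. These correlations describe 6 libraries that share their depth and their mix of stages between genes, and they were not tested.

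To ask the same of spermatocytes lacking Pld6, the L/Z Pld6 KO and WT libraries were compared. In this comparison 0 of the 9 genes were called by edgeR, by DESeq2 or by limma. Over all genes DESeq2 called 90, limma at a pseudocount of 1 called 8, and edgeR called 0.225%. An unadjusted p under 0.05 was found for 2 of the 9 and for 9.17% of all genes. Prdm9 stood at 141 and 185 CPM in Pld6 KO against 67.2 and 130 CPM in WT, without overlap, and its log2 difference was 0.73 (95% interval 0.08 to 1.38, FDR 0.501). Mei1 stood at 77.1 and 66.2 CPM in Pld6 KO against 93.1 and 108 CPM in WT, also without overlap, and its log2 difference was -0.49 (95% interval -0.95 to -0.03, FDR 0.52). Such a separation was seen for 42.8% of all genes. For the other 7 genes the groups overlapped. The differences for Dmc1 (-0.07, 95% interval -0.71 to 0.58) and Hfm1 (-0.17, 95% interval -0.79 to 0.46) left changes of more than 2-fold outside their intervals. Those for Spo11 (-0.35, 95% interval -1.12 to 0.42) and Spata22 (0.53, 95% interval -0.23 to 1.29) did not.

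Each of these genotypes had 1 library rich in Rn45s, so the comparison was also read within each kind. Such a value sets 1 library against 1 and has no measure of spread. The log2 difference of Prdm9 was 1.07 between the Rn45s-rich libraries and 0.51 between the others. That of Mei1 was -0.27 and -0.70. For Spo11, Dmc1, Psmc3ip, Msh4, Msh5 and Hfm1 the sign differed between the 2 kinds, as in Dmc1 with 0.31 and -0.31. Spata22 was higher in both, by 0.84 and 0.36.

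The L/Z Dnmt3l KO and Pld6 KO libraries were then compared with each other, which bears on whether the 2 mutants differ. All 9 genes had both Dnmt3l KO libraries above both Pld6 KO libraries, against 26.9% of all genes, and the median log2 difference was 1.14. In edgeR 0 of the 9 were called and 0.0477% of all genes were called, although 8 of the 9, and 17.5% of all genes, had an unadjusted p under 0.05. Dmc1 (1.41, SE 0.30, FDR 0.102), Hfm1 (1.31, SE 0.29, FDR 0.112) and Spo11 (1.42, SE 0.35, FDR 0.127) had the lowest FDR. DESeq2 called 5 genes (Spo11, Prdm9, Dmc1, Spata22 and Hfm1), limma called 0, and edgeR called 4 when the 2 genotypes were fitted alone. Without WT replicate 1, which is in neither group but shares the fit, edgeR called 5, and without WT replicate 2 it called 4. The calls over all genes rose as well, from 7 to 350 with DESeq2, 181 with the 2 genotypes alone, 215 without WT replicate 1 and 184 without WT replicate 2. On the scale of the L/Z markers 0 were called, and Mei1 (-0.61), Psmc3ip (-0.18) and Msh5 turned below 0. The Dnmt3l KO libraries enter this comparison and that with WT, so the values are given side by side and not as independent results.

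At P0, before meiosis, the 9 genes were also found, each at a lower WT mean in FPKM than at L/Z. Psmc3ip stood highest, at 20.7 ± 5.18 FPKM in WT testes (SD, n = 2), against 44.5 ± 16.1 FPKM in WT L/Z cells. Dmc1 stood at 4.88 ± 1.45 FPKM and Spata22 at 2.29 ± 0.78 FPKM. Msh5 (1.43), Prdm9 (1.41), Hfm1 (1.11), Spo11 (0.724), Mei1 (0.543) and Msh4 (0.249) followed. The 2 tables were scaled apart and come from different tissue and read types, so the stages were set side by side without a test. The counts behind these levels were small. Over the 11 libraries Spo11 had 6 to 52 fragments and Msh4 had 7 to 45, while Dmc1 had 85 to 313.

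**Figure D5:**
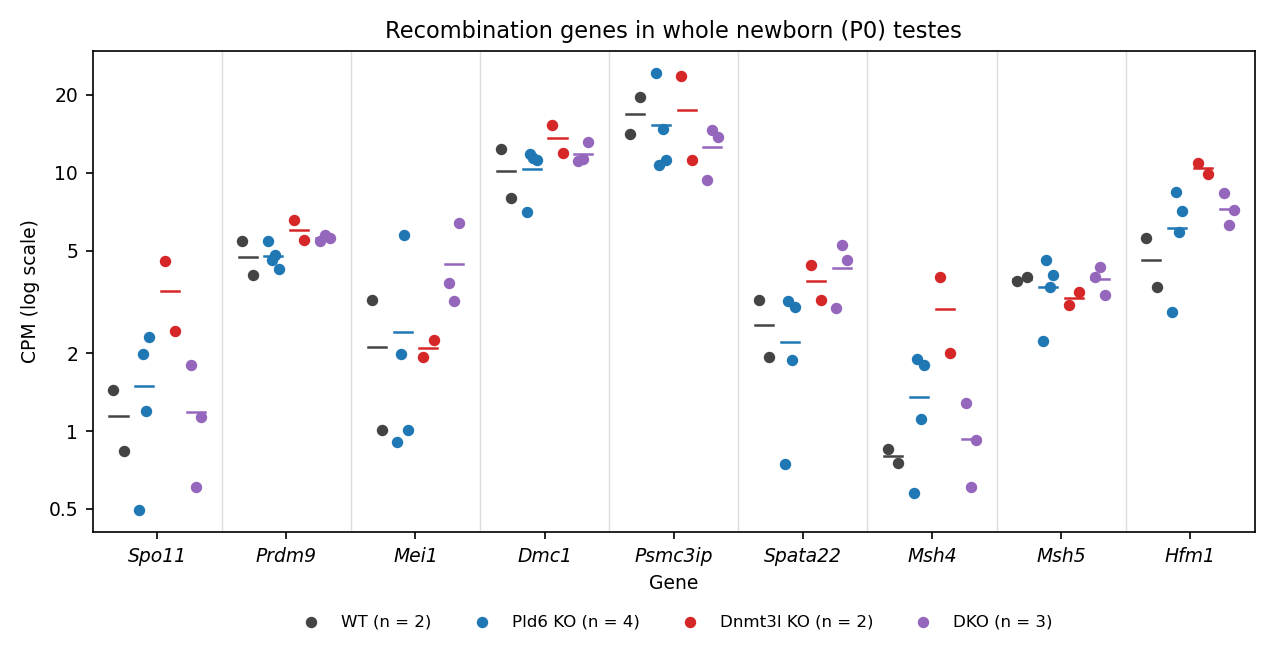
Level of each gene in each P0 library, in CPM on a log scale, with 1 point per library and a bar at the mean of a genotype. Psmc3ip and Dmc1 have the highest WT means, as they do in FPKM. All Spo11, Msh4 and Msh5 libraries lie below 5 CPM, and the Pld6 KO libraries overlap with WT for all 9 genes.

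To ask whether the mutations altered these genes before meiosis, each mutant was compared with WT at P0. In each of the 3 comparisons 0 of the 9 genes were called by edgeR, by DESeq2 or by limma. Over all genes DESeq2 called 15 for Pld6 KO, 76 for Dnmt3l KO and 65 for DKO. With limma at a pseudocount of 1 these numbers were 3, 0 and 5. By edgeR 0.00629% of all genes were called for Pld6 KO, 0.0% for Dnmt3l KO and 0.0126% for DKO. In Dnmt3l KO an unadjusted p under 0.05 was found for 3 of the 9 genes and for 12.9% of all genes. In Pld6 KO and in DKO it was found for 0 of the 9, against 5.06% and 7.97% of all genes.

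The 3 genes in Dnmt3l KO were Msh4, Hfm1 and Spo11. Msh4 stood at 0.85 and 0.756 CPM in WT and at 3.95 and 2.0 CPM in Dnmt3l KO. Its log2 difference was 1.88 (95% interval 0.55 to 3.20, FDR 0.305), and 1.30 (FDR 0.657) without Dnmt3l KO replicate 1. Hfm1 stood at 5.61 and 3.61 CPM in WT and at 10.9 and 9.89 CPM in Dnmt3l KO. Its log2 difference was 1.17 (95% interval 0.28 to 2.06, FDR 0.315), and 1.10 without Dnmt3l KO replicate 1. Spo11 stood at 1.44 and 0.84 CPM in WT and at 4.56 and 2.43 CPM in Dnmt3l KO. Its log2 difference was 1.61 (95% interval 0.16 to 3.05, FDR 0.349), and 1.08 without Dnmt3l KO replicate 1. In these 3 genes, and also in Prdm9 (higher in Dnmt3l KO) and Msh5 (lower), the groups did not overlap, which held for 49.6% of all genes.

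Dnmt3l KO replicate 1 stood apart at P0 in markers of meiosis. Its Ldhc, a lactate dehydrogenase of spermatocytes, was at 65.7 CPM against 0.838 to 2.08 CPM in the other 10 libraries. Its 10 L/Z markers summed to 333 CPM against 115 CPM in replicate 2 and 69 to 182 CPM in the other genotypes. Of the 9 genes, 7 were also higher in replicate 1 than in replicate 2, and Mei1 and Msh5 were lower. The part of that library's markers in these values was not tested.

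In Pld6 KO testes the groups overlapped with WT for all 9 genes, while 11.5% of all genes did not overlap. Prdm9 ranged from 4.23 to 5.45 CPM in the 4 Pld6 KO libraries, with a median of 4.7 CPM, against 5.44 and 4.03 CPM in WT. Its log2 difference of 0.01 (95% interval -0.55 to 0.58) left changes of more than 2-fold outside the interval, as did those of Dmc1 (0.03, 95% interval -0.53 to 0.59) and Msh5 (-0.10, 95% interval -0.81 to 0.60). Spo11 ranged from 0.495 to 2.31 CPM, and its interval of -0.93 to 1.70 covered larger changes. In Pld6 KO replicate 1, where 8 markers of newborn germ cells summed to 122 CPM against 381 to 456 CPM in the other 3, Spo11, Dmc1, Spata22, Msh4, Msh5, Hfm1 and Mei1 were at their lowest for that genotype, and Prdm9 and Psmc3ip at their highest. Whether its germ cell content bears on this was not tested.

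In DKO testes Prdm9 (5.44, 5.76 and 5.57 CPM) and Hfm1 (8.32, 6.29 and 7.17 CPM) did not overlap with WT, Prdm9 by less than 0.1 CPM, and the other 7 genes did. Of all genes tested, 29% did not overlap in this comparison. Hfm1 differed by 0.65 on the log2 scale (95% interval -0.17 to 1.47, FDR 0.717). Mei1 had the widest interval, with a difference of 1.08 (-0.45 to 2.60, FDR 0.744). That of Dmc1 was narrower, with a difference of 0.23 (95% interval -0.37 to 0.82). The 3 comparisons at P0 share their WT libraries.

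Whether a mutation's effect differed between L/Z and P0 was tested with an interaction term over 14 libraries, those of the genotypes found at both stages, where stage, tissue and read type cannot be told apart. For Dnmt3l KO 0 of the 9 genes were called and 0.665% of 16547 genes were called. Prdm9 had an effect larger at L/Z by 1.51 on the log2 scale (SE 0.39, FDR 0.0856) and Msh5 by 1.40 (SE 0.45, FDR 0.134). For Spo11 (-0.55), Msh4 (-0.82), Mei1 (-0.22) and Hfm1 (-0.05) the estimate lay below 0. For Pld6 KO 0 of the 9 were called, against 0.0121% of all genes, and Prdm9 had a difference of 0.70 (SE 0.36, FDR 0.549). So the calls at L/Z and their lack at P0 do not show that the effects differ between the stages.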

How the data were processed

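Poly(A) RNA was sequenced as stranded TruSeq libraries, with single 50-bp reads at L/Z and paired 100-bp reads at P0. Per the labels, the authors used TopHat and Cuffdiff on mm10, with versions not given in the sources used here. The deposited tables, 1 per stage, give per gene and library an estimated count of fragments and FPKM, and replicates were not pooled. Of the estimated counts, 98.8% (L/Z) and 98.9% (P0) were within 0.01 of a whole number. FPKM was scaled by the authors to transcript length and library size. Cuffdiff shares fragments between overlapping transcripts by likelihood. A gene was dropped if Cuffdiff gave it a status other than OK in a library, which removed 6 genes from the L/Z table and 2 from the P0 table. Replicate numbers start at 0 in the tables but at 1 in the labels, and each table number was read as the label number that is 1 higher, so the name of a single replicate rests on that assumption but no group does.

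Estimated counts were rounded to whole numbers. The test was that of edgeR 4.0.16 under R 4.3.3 (filterByExpr, TMM, glmQLFit, glmQLFTest), fitted jointly to every genotype of a stage, with p-values adjusted over all genes tested by the Benjamini-Hochberg method. CPM are rounded counts over the effective library size. A gene was called at an FDR under 0.05 and a fold over 2. Limits of 3 fragments and intervals cover counting and replicate error only. The fit was tried on simulated counts with known changes and the same spread set for every gene. That simulation held no difference in Rn45s or cell stage, so it does not show how reliable the calls are in these libraries. Named genes were the 9 genes, Pld6 and Dnmt3l, other recombination genes called against WT at L/Z (at most 8), and the 5 genes most like the mean profile. Mcmdc2, Mnd1 and the single markers were named after their values were seen. The lists were 44 other recombination genes and markers of leptotene/zygotene cells, spermatogonia, pachytene and later cells, newborn germ cells, Sertoli cells, Leydig cells and blood. The 9 genes and these lists were chosen with earlier results of these data known.

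Alternatives were DESeq2 size factors, no filter, the DESeq2 1.42.0 Wald test, the compared groups alone, limma 3.58.1 on log2 of FPKM with a pseudocount of 1 or 0.1, calls without the fold threshold, a replicate block, a loess offset (span 0.3) for GC content and length (known for 98.5% of genes), a term for libraries above 5% Rn45s, leaving out each library and, added later, scaling to 10 L/Z or 8 newborn germ cell markers. Promoters came from RefSeq GRCm38.p6 and coordinates of mm10 were used as the same build. Figures were drawn with Python 3.11.15 and matplotlib 3.10.9.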

Additional observations from a re-analysis of the deposited data

Results flagged for a closer look

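In the 4 Pld6 KO libraries at P0, Dmc1 stood at 7.02 CPM in replicate 1 and at 11.8, 11.4 and 11.2 CPM in the other 3, a gap large enough to set replicate 1 apart by Dixon's test at the 95% level. The same 4 libraries were examined for each of the 9 genes, and 1 gene, Dmc1, had a library apart. Chance sets a library apart in about 1 such test in 20. The 9 tests share their libraries and are not independent. The same library had the lowest sum of newborn germ cell markers, 122 CPM against 451, 381 and 456 CPM. Without it the log2 difference of Dmc1 from WT was 0.18, against 0.03 with it, and neither was called.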

How the results depend on the processing

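Of the 9 genes, 5 were called in L/Z Dnmt3l KO against WT. With the offset for GC content and length 3 were called (Prdm9, Spata22 and Msh5), while calls over all genes fell from 802 to 299. With scaling to the L/Z markers 1 was called, Mei1, which was lower. Over all genes that scaling called 5934 lower and 101 higher. Leaving out single libraries gave 0 to 7. In L/Z Dnmt3l KO against Pld6 KO 0 were called, but 3 without the filter on low counts, 5 with DESeq2, 4 with the compared groups alone and 0 to 5 without single libraries. Over all genes 193 were called without that filter, 350 with DESeq2 and 181 with the compared groups alone, against 7 in the main fit. In the other 4 comparisons 0 of the 9 were called under every alternative run. The cause of these changes was not tested. Over all genes, the number called moved from 33 to between 1 and 101 (L/Z Pld6 KO against WT), from 802 to between 1 and 6035 (Dnmt3l KO against WT), from 7 to between 0 and 2991 (Dnmt3l KO against Pld6 KO), from 1 to between 0 and 21 (P0 Pld6 KO), from 0 to at most 76 (P0 Dnmt3l KO) and from 2 to between 1 and 102 (P0 DKO). Samples sharing a replicate number were not paired by the labels, and their deviations correlated at -0.144 to 0.485 at L/Z and -0.332 to 0.271 at P0. The replicate block left the number of the 9 genes called at 5 in Dnmt3l KO against WT at L/Z and at 0 in the other 5 comparisons.

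Signs changed only in differences that were not called in the main fit. With the offset these were, on the log2 scale, Psmc3ip (0.016) and Msh4 (-0.025) in L/Z Pld6 KO against WT, Mei1 (0.085) in L/Z Dnmt3l KO against WT, Dmc1 (-0.039) in P0 Pld6 KO, and Mei1 (0.31) and Psmc3ip (-0.21) in P0 Dnmt3l KO. With the compared groups alone it was Spo11 in P0 DKO (-0.0044). With limma they were Mei1 (0.011 and 0.12 at pseudocounts of 1 and 0.1) and Psmc3ip (-0.083 and -0.091) in P0 Dnmt3l KO. With the replicate block they were Mei1 (-0.26) and Dmc1 (-0.086) in P0 Pld6 KO, Mei1 (0.024) and Psmc3ip (-0.025) in P0 Dnmt3l KO and Msh5 (0.013) in P0 DKO. With scaling to the markers they were Msh4 (-0.0038) in L/Z Pld6 KO against WT, Psmc3ip (-0.54) in L/Z Dnmt3l KO against WT, and Mei1 (-0.61), Psmc3ip (-0.18) and Msh5 (-0.00062) in L/Z Dnmt3l KO against Pld6 KO. At P0 on that scale they were Spo11 (-0.012), Mei1 (-0.11), Dmc1 (-0.15) and Psmc3ip (0.12) in Pld6 KO, Prdm9 (-0.031) and Psmc3ip (-0.41) in Dnmt3l KO, and Spo11 (-0.73), Prdm9 (-0.37), Dmc1 (-0.40) and Msh4 (-0.53) in DKO.

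Leaving out single libraries moved the sign for Spo11 (-0.83 to 0.37), Dmc1 (-0.47 to 0.50), Psmc3ip (-0.59 to 0.17), Msh4 (-0.50 to 0.92), Msh5 (-0.091 to 0.83) and Hfm1 (-0.56 to 0.38) in L/Z Pld6 KO against WT. At P0 it did so for Prdm9 (-0.18 to 0.22), Mei1 (-0.69 to 1.23), Dmc1 (-0.25 to 0.35), Psmc3ip (-0.47 to 0.13), Spata22 (-0.55 to 0.16) and Msh5 (-0.25 to 0.071) in Pld6 KO. It also did so for Mei1 (-0.63 to 1.01) and Psmc3ip (-0.59 to 0.46) in Dnmt3l KO, and for Spo11 (-0.35 to 0.43), Dmc1 (-0.057 to 0.54), Msh4 (-0.041 to 0.42) and Msh5 (-0.10 to 0.076) in DKO. A group left with 1 library was taken to vary like the others. Small counts limit the P0 values, and 2 libraries in most groups limit all tests.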

Other observations

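Among the other 41 recombination genes at P0, 0 were called in any of the 3 mutants against WT by edgeR. Of all genes it called 0.00629% for Pld6 KO, 0.0% for Dnmt3l KO and 0.0126% for DKO. The list's median log2 difference was -0.10 for Pld6 KO, 0.13 for Dnmt3l KO and -0.04 for DKO, against 0.02, 0.03 and 0.01 over all genes. Meiob, the 1 gene of this list called at L/Z, was not called in P0 Dnmt3l KO, with a log2 difference of 2.83 (SE 1.05, FDR 0.323).

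In L/Z Dnmt3l KO against WT the 8 markers of newborn germ cells had a median log2 difference of 0.11 with 0 called, and summed to 2649 and 3365 CPM in WT and 4297 and 4494 CPM in Dnmt3l KO. Of the 5 Leydig cell markers 3 were tested and 0 called, with sums of 13.7 to 17.9 CPM in WT and 6.3 to 6.6 CPM in Dnmt3l KO, where Cyp17a1 was at 0. Of the 4 blood markers 3 were tested and 0 called, with sums of at most 12.3 CPM in any L/Z library.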
